A study of Homo sapiens with 8 samples.

Results

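The genes described are 10 core and output genes of the circadian clock, PER1, PER2, PER3, CRY1, CRY2, ARNTL, CLOCK, NR1D1, NR1D2 and DBP. They were chosen by name, but with earlier results of these data known, and all 10 were measured among the 16153 genes analysed. RNA was sequenced in 8 libraries of HMEC-1, an established endothelial line that was made from the microvessels of human skin by introducing a viral large T antigen. Of these, 3 libraries came from cells left in weightlessness aboard the International Space Station (space_microg), 2 from cells held at 1 g in the centrifuge of the same orbital incubator (space_1g), and 3 from cells that stayed in the home laboratory (ground). All groups carried the same cells on gelatin-coated plastic in MCDB131 medium with fetal bovine serum, epidermal growth factor and hydrocortisone, had their medium exchanged at the same times, and were fixed in RNA Protect. Both flight groups also shared launch, transfer and cosmic radiation, so space_microg against space_1g is the comparison of gravity within orbit and each flight group against ground is a comparison of the whole flight. Whether replicates came from separate cultures is not stated in the labels, and p-values therefore measure no more than the spread among these libraries, which may be technical.

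The clock runs in most cells as a daily cycle of transcription. ARNTL (also called BMAL1) and CLOCK pair and bind E-boxes, short DNA motifs that lie in PER, CRY, NR1D1, NR1D2 and DBP, and the PER and CRY proteins return to the nucleus to repress that pair. NR1D1 and NR1D2 (REV-ERBα and REV-ERBβ) repress ARNTL through ROR elements, and DBP activates genes that carry D-boxes. In cultured endothelial cells the cycles of single cells drift apart unless a stimulus such as fresh serum or a glucocorticoid sets them together. Each library is 1 moment, and the labels do not give the time between the last medium exchange and fixation, so phase and amplitude were not measured.

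The motifs through which these genes are known to act on one another were searched in the reference windows from 250 bases before to 50 after each start in RefSeq (GRCh38). A window was found for all 10 genes (15 windows, ARNTL under the name BMAL1), and 9 genes held at least 1 match. The letters searched, on both strands, were CACGTG for the E-box, CACGTT for the E-prime box, TTATGTAA and TTATGCAA for the D-box, TAGGTCA for the core of the ROR element and TGACGTCA for the cyclic AMP element, and a heat shock element was searched beside them. The E-box and the E-prime box differ in their last letter, and no match overlapped another. PER1 and NR1D2 held E-boxes, against 7.26% of all 35116 RefSeq windows of this length, and PER2, CRY1, CRY2, CLOCK and NR1D1 held an E-prime box, against 5.34%. PER1, PER3 and NR1D2 held a D-box (1.71% of all windows), and ARNTL and CRY2 held the ROR core (1.85%). No clock gene held the cyclic AMP element (1.85%) or the heat shock element (0.49%), and DBP held none of the motifs in its window. The percentages are shares of single windows, whereas a clock gene with more than 1 window was counted if any of them matched. The 2 are therefore not on the same footing. The 250 bases before the start are shown for PER3 and NR1D2, the pair of clock genes with the most alike profiles in these libraries, followed by the sites of the others with 8 bases on each side. Every run is 5′ to 3′ on the strand of the gene and capitals mark the motif.
PER3, chr1:7784041-7784290, plus strand, D-box: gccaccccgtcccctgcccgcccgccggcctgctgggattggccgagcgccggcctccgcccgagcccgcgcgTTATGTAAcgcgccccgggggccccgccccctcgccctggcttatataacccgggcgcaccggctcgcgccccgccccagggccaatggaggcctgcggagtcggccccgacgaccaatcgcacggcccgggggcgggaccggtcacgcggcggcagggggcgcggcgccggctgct
NR1D2, chr3:23945871-23946120, plus strand, a D-box and 2 E-boxes: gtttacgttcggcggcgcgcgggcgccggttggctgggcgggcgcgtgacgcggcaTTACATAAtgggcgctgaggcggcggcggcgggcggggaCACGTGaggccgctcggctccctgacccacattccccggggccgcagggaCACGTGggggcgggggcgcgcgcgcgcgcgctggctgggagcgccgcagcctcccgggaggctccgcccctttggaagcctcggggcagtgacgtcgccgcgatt
PER1 E-box at chr17:8152572-8152577, minus strand: cccaggtcCACGTGcgcccgtg
PER1 D-box at chr17:8152427-8152434, minus strand: gcccggcaTTATGCAAcccgcctc
ARNTL ROR core at chr11:13277820-13277826, plus strand: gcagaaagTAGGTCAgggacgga
CRY2 ROR core at chr11:45847410-45847416, plus strand: cggcgtcaTAGGTCActgggcgg
CRY2 E-prime box at chr11:45847287-45847292, plus strand: atggtaggAACGTGagggggcg
NR1D1 E-prime box at chr17:40100752-40100757, minus strand: aagagctcAACGTGccggctgt
PER2 E-prime box at chr2:238288802-238288807, minus strand: cgcgcggtCACGTTttccacta
CRY1 E-prime box at chr12:107093633-107093638, minus strand: acttcagaAACGTGaggtgccg
CLOCK E-prime box at chr4:55546114-55546119, minus strand: cactcgggCACGTTtggagcag
For the single sites the coordinates are those of the capitals. The D-box of PER3 lies at -177 from the start and outside any gene of GENCODE v29, and the E-boxes of NR1D2 lie at -155 and -105, in an intron of a longer NR1D2 transcript. The ROR core of ARNTL lies at 31, in the first exon, and the D-box of PER1 at -30 falls in an exon of another PER1 transcript. A match is a description of the letters and says nothing of whether a factor was bound in these cells.

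Values are the deposited CPM (reads scaled by the authors to an effective library size), called scaled CPM here. Depth was 24248964 to 35388757 reads per library, and a count of 0 would allow up to 3 reads, or 0.0855 to 0.12 scaled CPM, by counting error alone. All 10 clock genes passed the filter of at least 1 scaled CPM in at least 2 libraries, as did 16103 genes in all. On the first principal component of all genes (61.9% of the variance), space_1g replicate 1 and ground replicate 3 stood apart from the other 6 libraries, at 60.7 and 64.7 against -31.1 to 1.51. They belong to different groups, so the differences of the clock genes, and those printed for companion genes with an unadjusted p under 0.05, are also given without them. A smooth, curved trend (natural splines) on GC content and the log of transcript length was fitted to each library's deviation from the gene means. This trend accounted for 53.4% of the variance in space_microg replicate 2, 21.1% in ground replicate 3, 14.2% in space_1g replicate 1, 12.0% in space_microg replicate 3 and 2.15% to 9.03% in the others.

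Levels were set per kilobase of all annotated exons of a gene joined together, a rough allowance for length. On this measure NR1D2 was the highest of the clock genes, with a mean of 14.8 scaled CPM per kb over the 8 libraries. PER1 followed with 13.0 and CLOCK with 12.0, then CRY1 with 8.77, PER3 with 5.03, CRY2 with 4.31, NR1D1 with 4.14, ARNTL with 3.38, PER2 with 2.14 and DBP with 0.545. The ranges over libraries of neighbours in this order overlapped except between CRY1 (lowest 6.87) and PER3 (highest 6.15), and between PER2 (lowest 1.62) and DBP (highest 0.935). On this measure CLOCK stood above its partner ARNTL in all 8 libraries (8.19 to 14.4 against 2.19 to 5.96 per kb), and NR1D2 above NR1D1 in all 8 (12.5 to 17.8 against 1.77 to 11.6). The order depends on the length used. The longest transcript has 4707 bases against 7002 of joined exons in PER1, 5258 against 5820 in NR1D2 and 3862 against 6726 in ARNTL. DBP rested on 33 to 162 reads per library and NR1D1 on 168 to 985, while CLOCK had 3143 to 5825.

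ARNTL, the DNA-binding partner of CLOCK, was measured at 20.9, 22.9 and 18.8 scaled CPM in space_microg, 29.2 and 19.1 in space_1g, and 14.7, 16.0 and 40.1 on the ground. Ground replicate 3 was the highest and the other 2 ground libraries the lowest of all 8, so the groups overlapped. CLOCK, a histone acetyltransferase as well as a transcription factor, was measured at 141, 169.96 and 139.8 in space_microg, 112 and 160.2 in space_1g, and 155, 149.7 and 96.3 on the ground. Its 2 lowest values were those of the libraries that stand apart, in which ARNTL had its 2 highest. The activating pair thus lay at opposite ends in those libraries. Between all 8, ARNTL spanned 2.72-fold and CLOCK 1.76-fold, and over the other 6 libraries 1.55-fold and 1.22-fold.

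PER1, the period gene that also answers directly to glucocorticoids and cyclic AMP, was measured at 85.0, 73.3 and 77.0 in space_microg, 108 and 102 in space_1g, and 82.0, 97.3 and 101.7 on the ground. Every space_microg library lay below both space_1g libraries, and both space_1g libraries lay above all ground libraries, replicate 2 by less than 1 scaled CPM. PER2, which stabilises CRY in the repressor complex, was measured at 12.3, 13.3 and 11.1 in space_microg, 23.2 and 12.5 in space_1g, and 12.7, 14.3 and 18.1 on the ground. PER3, the third period protein, was measured at 37.4, 49.8 and 43.1 in space_microg, 33.7 and 48.4 in space_1g, and 38.1, 44.5 and 30.9 on the ground. The libraries that stand apart were the 2 highest for PER2 and the 2 lowest for PER3, and for PER1 they were at neither end.

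CRY1, the stronger repressor of the cryptochrome pair, was measured at 40.3, 45.1 and 50.3 in space_microg, 34.8 and 41.6 in space_1g, and 46.1, 47.1 and 49.6 on the ground. Both space_1g libraries lay below all ground libraries, and the space_microg libraries spread across the range. CRY2, its paralogue, was measured at 25.95, 22.4 and 24.4 in space_microg, 34.0 and 24.7 in space_1g, and 23.5, 21.8 and 37.1 on the ground. Outside the libraries that stand apart, CRY2 kept between 21.8 and 25.95, a 1.19-fold span and the narrowest of the 10 genes.

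NR1D1, the nuclear receptor that represses ARNTL, was measured at 9.74, 4.90 and 6.04 in space_microg, 32.0 and 7.55 in space_1g, and 7.03, 9.005 and 15.6 on the ground. It had the widest span, 6.53-fold, and 1.99-fold over the other 6 libraries. NR1D2 was measured at 83.9, 103 and 88.2 in space_microg, 73.0 and 99.0 in space_1g, and 80.5, 86.0 and 76.3 on the ground. The paralogues thus went opposite ways in the libraries that stand apart, which held the 2 highest values of NR1D1 and the 2 lowest of NR1D2. NR1D1 shares 263 bases, 9.49% of its exon length, with THRA on the opposite strand. THRA had its lowest value, 30.1, in space_1g replicate 1, where NR1D1 was highest. Whether the authors counted reads by strand is not stated in the labels.

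DBP, the D-box activator and the main output factor among the 10, was measured at 2.82, 2.89 and 5.23 in space_microg, 1.66 and 6.12 in space_1g, and 4.88, 3.94 and 1.01 on the ground. Its span was 6.05-fold, with the 2 lowest values in the libraries that stand apart. DBP shares 661 bases (10.1% of its exon length) with SPHK2 on the opposite strand, and SPHK2 had its 2 highest values, 19.3 and 19.6, in those libraries. PER3 shares 10.7% of its exon length with UTS2 on the opposite strand, which was not analysed here, and CLOCK 0.646% with TMEM165.

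**Figure D1:**
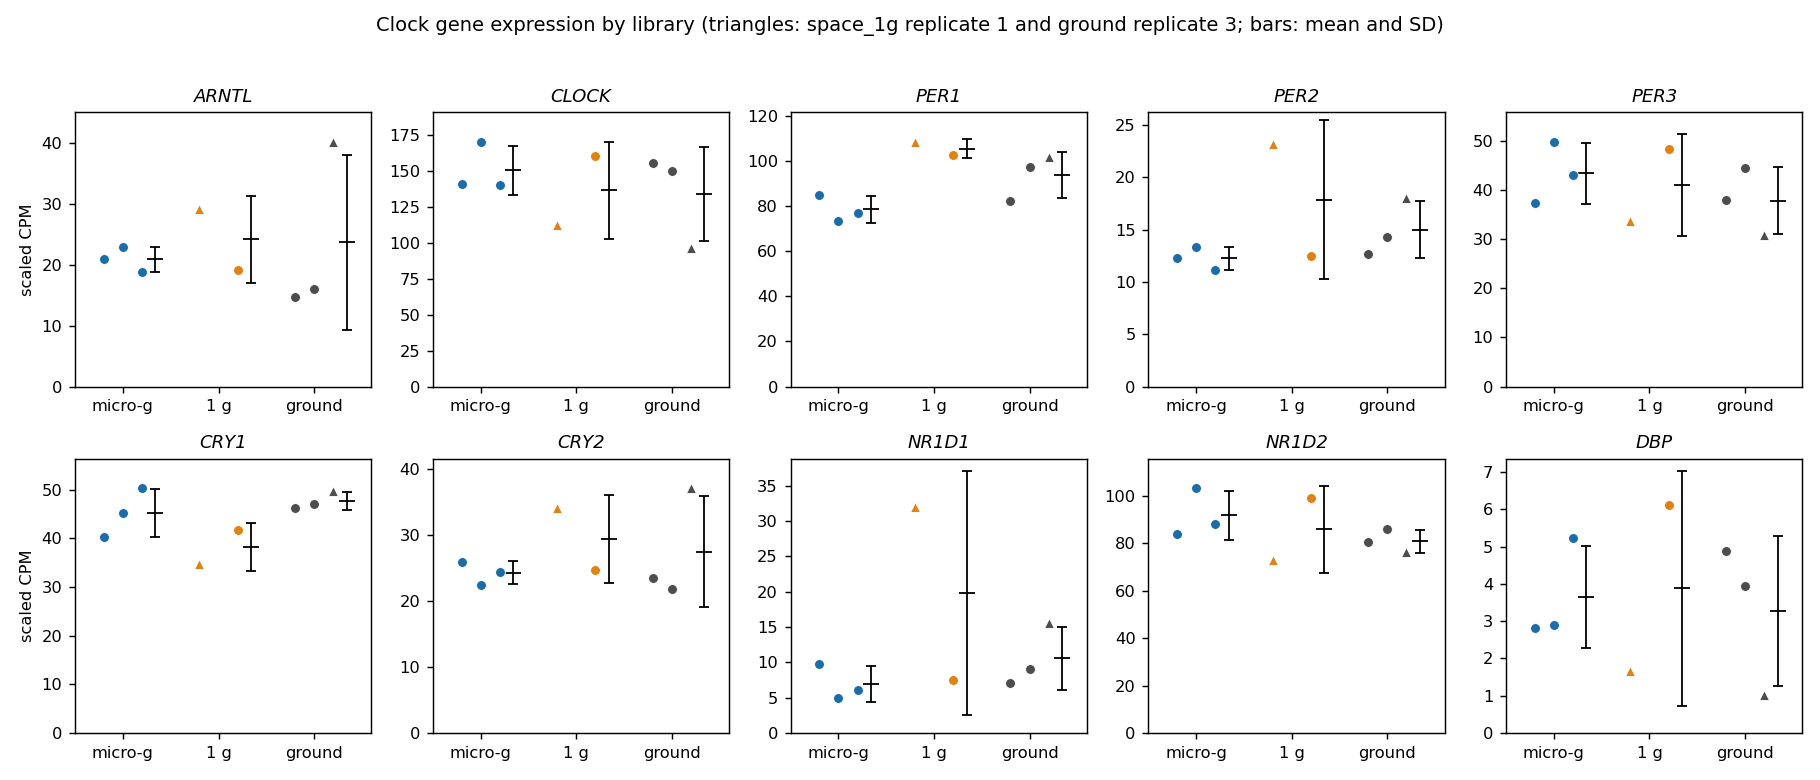
Scaled CPM (vertical axes, from 0) of the 10 clock genes in each library, by group (horizontal axes), with triangles for space_1g replicate 1 and ground replicate 3 and bars for the group mean and SD. The triangles are the 2 highest points for ARNTL, PER2, CRY2 and NR1D1 and the 2 lowest for CLOCK, PER3, NR1D2 and DBP.

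Between space_microg and ground, the comparison of weightless flight with the home laboratory, 0 of the 10 clock genes passed limma's test (Benjamini-Hochberg adjusted p under 0.05), and neither did any of the 16103 genes (0%). An unadjusted p under 0.05 was reached by 0 clock genes and by 696 of all genes (4.32%); edgeR called 0 genes (741 unadjusted) and DESeq2 3 (871 unadjusted), none of them a clock gene. The largest difference among the 10 was that of NR1D1, with a mean of 6.89 ± 2.53 (SD, n = 3) in space_microg and 10.6 ± 4.51 (SD, n = 3) on the ground, a difference of -0.53 ± 0.50 (SE) on the log2(scaled CPM + 1) scale (95% interval -1.67 to 0.62). PER1 differed by -0.25 ± 0.14 (interval -0.57 to 0.07), PER2 by -0.26 ± 0.25, CRY2 by -0.14 ± 0.23 and CRY1 by -0.077 ± 0.15. PER3 differed by 0.20 ± 0.21, CLOCK by 0.19 ± 0.22, NR1D2 by 0.18 ± 0.16, DBP by 0.22 ± 0.50 and ARNTL by -0.029 ± 0.36. Each of these intervals included 0. With the GC and length trend removed, PER1 was at -0.010, PER2 at -0.11, CLOCK at 0.042 and NR1D2 at 0.014, while CRY1 was at -0.29 (unadjusted p = 0.0702, adjusted p = 0.952) and DBP at 0.43. The median of the 10 was -0.05, with 4 above 0 and 6 below, and that of all genes -0.02. In no clock gene were the 2 groups free of overlap, as they were in 14.4% of all genes.

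Between space_1g and ground, where gravity is matched and the rest of the flight differs, limma called 0 clock genes and 0 of all genes (0%). An unadjusted p under 0.05 was reached by 0 clock genes and 249 genes in all (1.55%), edgeR called 0 (227 unadjusted) and DESeq2 0 (327 unadjusted). PER1 averaged 105 ± 4.23 (SD, n = 2) in space_1g and 93.7 ± 10.3 (SD, n = 3) on the ground, a difference of 0.17 ± 0.16 with the groups apart. CRY1 averaged 38.2 ± 4.86 and 47.6 ± 1.82, a difference of -0.32 ± 0.17 (interval -0.70 to 0.067, unadjusted p = 0.0947) with the groups apart. With single libraries left out it ranged from -0.44 to -0.19, and with space_1g replicate 1 and ground replicate 3 both left out it was -0.16 (unadjusted p = 0.452). These were 2 of 10 clock genes with groups apart, against 10.7% of all genes. Of the others, NR1D1 differed by 0.61 ± 0.56, PER2 by 0.19 ± 0.28, DBP by 0.16 ± 0.55, ARNTL by 0.14 ± 0.40, CRY2 by 0.11 ± 0.26, PER3 by 0.11 ± 0.23, NR1D2 by 0.072 ± 0.18 and CLOCK by 0.037 ± 0.25. The median was 0.13, with 9 above 0, against 0.0061 for all genes. That count rests on a mean of 2 unlike libraries: without space_1g replicate 1, PER2, CRY2, ARNTL and NR1D1 were at -0.23, -0.11, -0.15 and -0.36, and without space_1g replicate 2, PER3, CLOCK, NR1D2 and DBP were at -0.15, -0.22, -0.15 and -0.55.

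Between space_microg and space_1g, the comparison of gravity within orbit, limma called 0 clock genes and 0 of all genes (0%). In limma PER1 was the single clock gene with an unadjusted p under 0.05, a level reached by 1.32% of all genes (212). EdgeR and DESeq2 called 0 genes (221 and 339 unadjusted), and in both of them 2 clock genes had an unadjusted p under 0.05, PER1 (0.0315 in edgeR and 0.0201 in DESeq2) and NR1D1 (0.0335 and 0.0120). PER1 averaged 78.4 ± 5.96 (SD, n = 3) in space_microg and 105 ± 4.23 (SD, n = 2) in space_1g, a difference of -0.42 ± 0.16 (95% interval -0.78 to -0.066, limma unadjusted p = 0.0254, adjusted p = 0.912), lower in 3 of 3 libraries. Groups without overlap were found in 1 of the 10 clock genes and in 14.2% of all genes. Over the alternatives the adjusted p of PER1 ranged from 0.335 to 1.00, and without the libraries that stand apart the difference was -0.38 (unadjusted p = 0.0601). After removal of the trend on GC and length in every library it was -0.12 (unadjusted p = 0.544), PER1 being the most GC-rich of the 10 transcripts at 62.7%.

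NR1D1 showed the largest difference of the 10 in that comparison, -1.14 ± 0.56 (interval -2.42 to 0.15, limma unadjusted p = 0.0757), from means of 6.89 ± 2.53 and 19.8 ± 17.3. It rested on space_1g replicate 1: without that library the difference was -0.16, and without space_1g replicate 2 it was -2.11. PER2 differed by -0.45 ± 0.28 and by -0.032 without space_1g replicate 1, CRY2 by -0.25 ± 0.26 and by -0.024 without it. ARNTL differed by -0.17 ± 0.40, PER3 by 0.094 ± 0.23, CRY1 by 0.24 ± 0.17, CLOCK by 0.16 ± 0.25, NR1D2 by 0.10 ± 0.18 and DBP by 0.057 ± 0.55. The median was -0.06, with 5 above 0 and 5 below, against -0.025 for all genes.

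**Figure D2:**
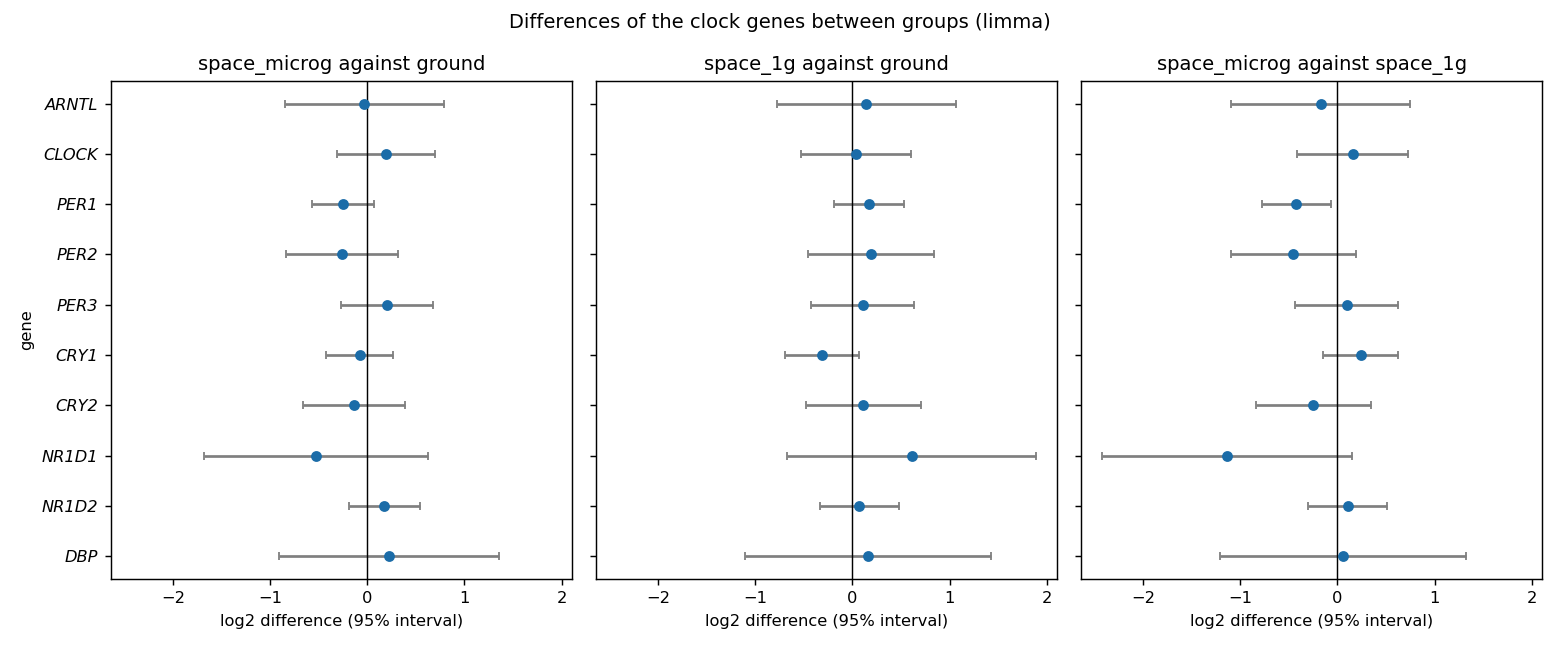
Differences of the 10 clock genes (vertical axis) on the log2(scaled CPM + 1) scale (horizontal axes) in 3 comparisons, with points for limma's estimate and bars for its 95% interval. All intervals cross 0 except that of PER1 between space_microg and space_1g, from -0.78 to -0.066.

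Both flight groups together, taken as the mean of their 2 means, differed from the ground by -0.20 ± 0.14 in CRY1, 0.19 ± 0.45 in DBP, 0.16 ± 0.19 in PER3, 0.12 ± 0.14 in NR1D2 and 0.11 ± 0.20 in CLOCK. The other 5 lay between -0.039 (PER1) and 0.058 (ARNTL). With the GC and length trend removed, CRY1 was at -0.29 (unadjusted p = 0.0482, adjusted p = 0.998), CLOCK at 0.046 and NR1D2 at 0.052. Limma called 0 clock genes and 0 of all genes (0%); an unadjusted p under 0.05 was reached by 0 clock genes and by 2.86% of all genes (460). EdgeR called 0 (463 unadjusted) and DESeq2 8 (596 unadjusted), none of them a clock gene. No clock gene kept its 5 flight libraries apart from the 3 ground libraries, as 3.8% of all genes did.

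Without the libraries that stand apart, ARNTL was the single clock gene with groups apart between space_microg and ground: its 3 space_microg values, 18.8 to 22.9, lay above the remaining ground values of 14.7 and 16.0. The difference was 0.41 ± 0.18 (limma unadjusted p = 0.0432, adjusted p = 0.377), against -0.029 with all libraries. The remaining space_1g library, at 19.1, also lay above both ground libraries, and for both flight groups together the difference was 0.35 ± 0.18 (unadjusted p = 0.0756). In those smaller sets 33.6% and 29.1% of the 15571 genes tested kept their groups apart, and 12.8% and 11.3% had an unadjusted p under 0.05. The other 9 clock genes overlapped in both of these comparisons. For space_microg against ground they were at -0.19 in PER1, -0.13 in PER2, 0.068 in PER3, -0.048 in CRY1, 0.093 in CRY2, -0.027 in CLOCK, -0.23 in NR1D1, 0.13 in NR1D2 and -0.25 in DBP. For both flight groups they were at 0.0026, -0.11, 0.15, -0.10, 0.11, 0.022, -0.15, 0.19 and 0.074 in that order. Between the remaining space_1g library and ground, 9 of 10 clock genes were apart, as were 75.4% of all genes, and 0 had an unadjusted p under 0.05 (5.3% of all genes). The differences were 0.19 in PER1, -0.098 in PER2, 0.23 in PER3, -0.16 in CRY1, 0.12 in CRY2, 0.29 in ARNTL, 0.071 in CLOCK, -0.067 in NR1D1, 0.25 in NR1D2 and 0.40 in DBP. Between space_microg and that library, PER1 and DBP were apart, against 33.3% of all genes, and 0 had an unadjusted p under 0.05 (0.867%). The differences were -0.38 in PER1, -0.032 in PER2, -0.16 in PER3, 0.11 in CRY1, -0.024 in CRY2, 0.12 in ARNTL, -0.098 in CLOCK, -0.16 in NR1D1, -0.11 in NR1D2 and -0.65 in DBP. With the GC and length trend removed instead, and all libraries kept, ground replicate 3 remained the highest for ARNTL, at 5.40 on the log2 scale against 3.99 and 4.10 in the other ground libraries.

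Most clock genes had their extreme values in the libraries that stand apart. ARNTL, PER2, CRY2 and NR1D1 had their 2 highest values in those libraries and CLOCK, PER3, NR1D2 and DBP their 2 lowest, 8 of 10 in all. Of all 16103 genes, 45.2% had both at 1 end, 3808 at the top and 3465 at the bottom. NR1D1 deviated from its mean over the 8 libraries by 1.63 in space_1g replicate 1 and 0.64 in ground replicate 3 on the log2 scale, ARNTL by 0.41 and 0.86, and DBP by -0.67 and -1.07. Among the other 6 libraries DBP spread from -0.15 to 0.75 and NR1D1 from -0.85 to 0.01.

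**Figure D3:**
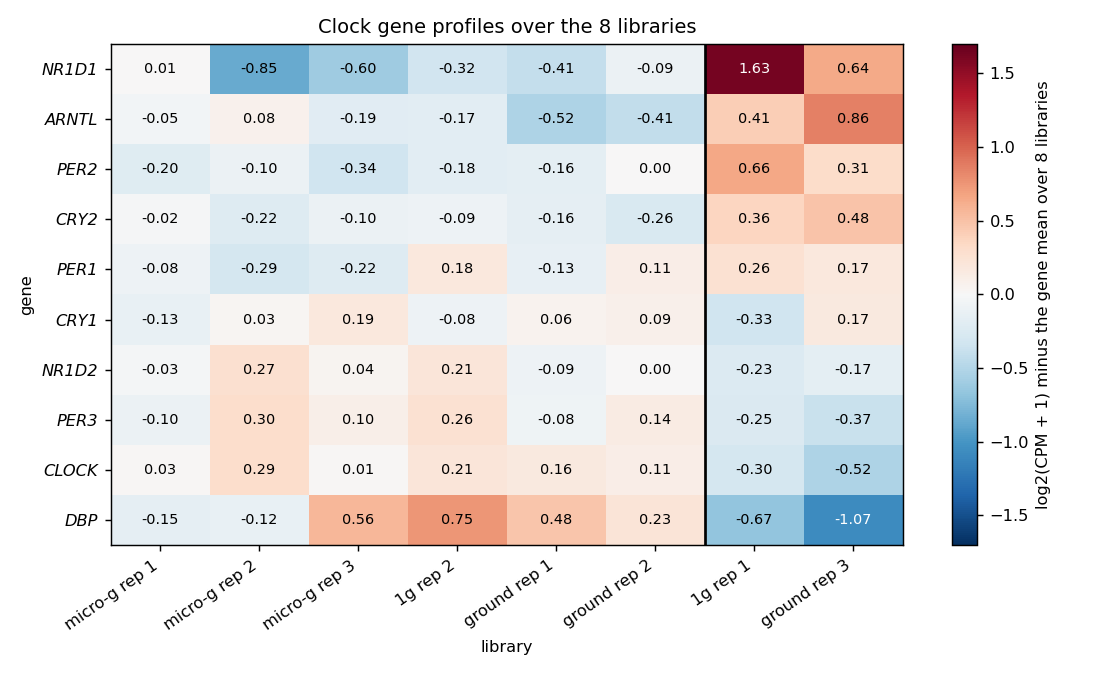
Deviation of log2(scaled CPM + 1) from the gene's mean over 8 libraries (colour and printed value) for each clock gene (rows) and library (columns), with space_1g replicate 1 and ground replicate 3 to the right of the line. NR1D1 (1.63 and 0.64) and ARNTL (0.41 and 0.86) lie above 0 in both, and DBP (-0.67 and -1.07) and CLOCK (-0.30 and -0.52) below 0 in both.

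Most of the genes that were highest there were richer in GC than most of those that were lowest. The genes highest in the libraries that stand apart had longest transcripts of 59.5% (NR1D1), 57.0% (CRY2), 52.4% (PER2) and 43.0% (ARNTL) GC, and 3 of the 4 lowest there had 46.2% (PER3), 38.5% (NR1D2) and 37.2% (CLOCK), with DBP at 57.8%. After removal of that trend from every library, the log2 range over 8 libraries narrowed from 0.81 to 0.28 for CLOCK, from 0.74 to 0.35 for CRY2, from 0.50 to 0.23 for NR1D2, from 1.00 to 0.72 for PER2 and from 2.48 to 2.00 for NR1D1. It stayed at 0.67 for PER3, went from 0.56 to 0.54 for PER1 and from 1.38 to 1.41 for ARNTL, and widened from 0.52 to 0.64 for CRY1 and from 1.82 to 2.21 for DBP. After that step, 4 clock genes were highest and 3 lowest in both libraries, NR1D2 having left the lowest set.

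**Figure D4:**
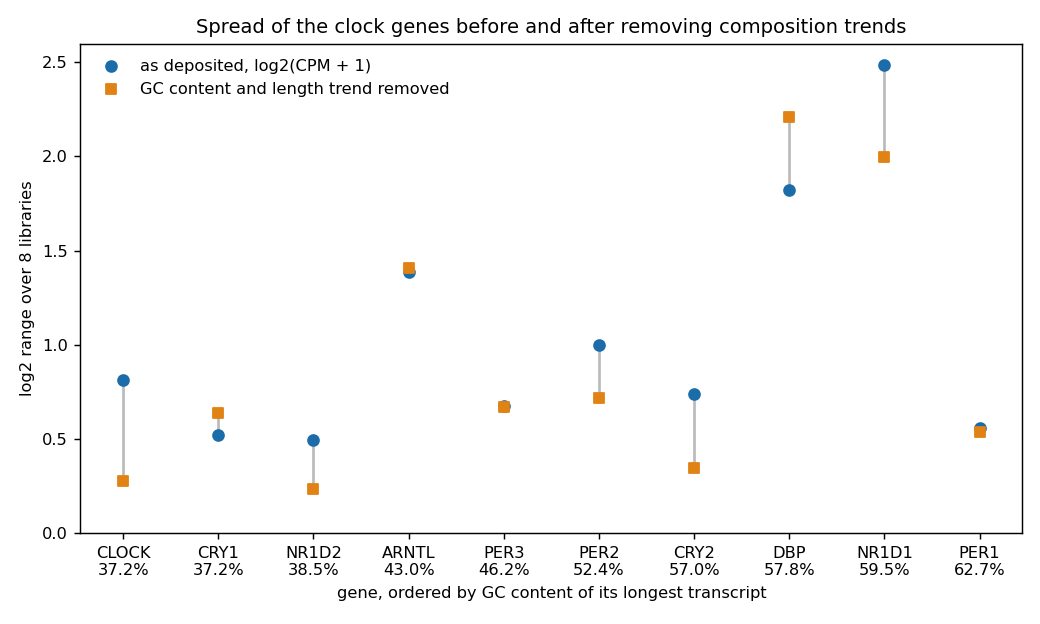
Log2 range over the 8 libraries (vertical axis, from 0) of each clock gene (horizontal axis, ordered by GC content of its longest transcript), as deposited (circles) and after removal of the trend on GC and length (squares). CLOCK goes from 0.81 to 0.28 and NR1D2 from 0.50 to 0.23, while ARNTL goes from 1.38 to 1.41, NR1D1 from 2.48 to 2.00 and DBP from 1.82 to 2.21.

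Likeness of profiles was measured as the root mean square difference between centred log2 values over the 8 libraries, a description that all genes of a library share in through its depth and base composition. PER3 and NR1D2 were the closest pair of clock genes (0.097), followed by CLOCK and PER3 (0.12), CLOCK and NR1D2 (0.16), and PER2 and CRY2 (0.19). The nearest clock gene to ARNTL was CRY2 (0.23), to NR1D1 PER2 (0.48) and to DBP CLOCK (0.41). Among 11293 other genes with a mean of at least 5 scaled CPM, closer matches were found for every clock gene. For 8 of the 10 the closest is named: it was KMT5B for CLOCK (0.039), ANKMY2 for NR1D2 (0.045), DMXL2 for PER3 (0.055) and GLB1 for CRY1 (0.062). For PER2 it was WDR59 (0.078), for ARNTL SHMT2 (0.079), for PER1 VEGFC (0.087) and for DBP PEG10 (0.16).

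Of 12 other clock transcription factors, 9 were analysed, and none passed limma's test in any comparison. TEF, a D-box activator of the same family as DBP, was the single one with an unadjusted p under 0.05. It was measured at 12.5, 15.4 and 18.95 in space_microg, 7.05 and 13.9 in space_1g, and 10.3, 9.52 and 7.48 on the ground. All 3 space_microg values lay above all ground values, a difference of 0.71 ± 0.28 (limma unadjusted p = 0.0325, adjusted p = 0.866) and of 0.59 without the libraries that stand apart (unadjusted p = 0.0221). ARNTL2, the paralogue of ARNTL, was more abundant than ARNTL in every library, at 79.4, 103 and 103 in space_microg, 64.7 and 84.96 in space_1g, and 80.2, 77.6 and 71.6 on the ground, before any correction for length. BHLHE40, a repressor that competes for E-boxes, was measured at 171 and 158 in the libraries that stand apart and at 40.1 to 67.3 in the other 6. NFIL3, the repressor at D-boxes, was at 32.1 and 31.1 there and at 19.6 to 24.2 elsewhere.

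TIMELESS, now known mainly for replication, was at 130.2 to 152.9 in the 5 flight libraries and at 158 to 177 in the 3 ground libraries, which did not overlap, as was true of 3.8% of all genes. The difference for both flight groups was -0.17 ± 0.12 (limma unadjusted p = 0.190, adjusted p = 1.00). Between space_microg and ground the groups were apart in 4 of the 9 factors, against 14.4% of all genes: TEF was higher in space_microg, and NFIL3, CIART and TIMELESS were lower, with differences of -0.31 ± 0.22, -0.41 ± 0.23 and -0.21 ± 0.13. The remaining factors, and CIART, were scarce. RORA, the activator at ROR elements, was measured at 1.49 to 5.07, BHLHE41 at 1.69 to 3.31, NPAS2, a stand-in for CLOCK, at 0.437 to 2.24, and CIART at 0.496 to 1.75. The groups of CIART were apart narrowly, with a highest space_microg value of 0.805 and a lowest ground value of 0.837. Of the 9, 4 were highest and 2 lowest in both libraries that stand apart, or 66.7% at either end, against 45.2% of all genes. Without those libraries 7 factors were tested. Between space_microg and ground 1 of them was apart and higher and 3 were apart and lower, where 33.6% of all genes were apart. RORB and HLF were among those not analysed here.

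Among 19 kinases, phosphatases and ubiquitin ligases that act on PER and CRY proteins, 0 passed limma's test in any comparison. PPP1CC, a catalytic subunit of the phosphatase that acts on PER, averaged 212 ± 25.1 in space_microg and 147 ± 28.99 on the ground (SD, n = 3 each), a difference of 0.54 ± 0.22 with the groups apart (limma unadjusted p = 0.0365, adjusted p = 0.866). It was 0.36 without the libraries that stand apart (unadjusted p = 0.0307). CSNK1D, the casein kinase that phosphorylates PER, was measured at 49.3 to 86.8. Of the 19, 7 were highest and 3 lowest in both libraries that stand apart, or 52.6% at either end, near the 45.2% of all genes. Of 18 coactivators and corepressors of the clock, 0 passed in any comparison, and 2 were highest and 8 lowest in both of those libraries (55.6%). DDX6, an RNA helicase reported with the PER complex, averaged 297 ± 22.7 in space_microg and 231 ± 20.3 on the ground, a difference of 0.36 ± 0.14 (unadjusted p = 0.0284), and differed by 0.30 ± 0.12 for both flight groups (unadjusted p = 0.0382). These were 0.29 and 0.25 without the libraries that stand apart (unadjusted p = 0.0597 and 0.0945).

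Of 12 genes known as outputs of the clock, 0 passed limma's test. WEE1, the mitotic kinase with E-boxes in its promoter, was measured at 61.8, 78.9 and 72.1 in space_microg, 48.3 and 73.0 in space_1g, and 95.6, 96.9 and 73.4 on the ground. Both space_1g values lay below all ground values, narrowly in replicate 2, and the difference was -0.56 ± 0.22 (limma unadjusted p = 0.0350, adjusted p = 1.00), or -0.39 without the libraries that stand apart (unadjusted p = 0.0722). Of the 12 output genes, 8 were highest and 1 lowest in both libraries that stand apart, or 75.0% at either end, against 45.2% of all genes.

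**Figure D5:**
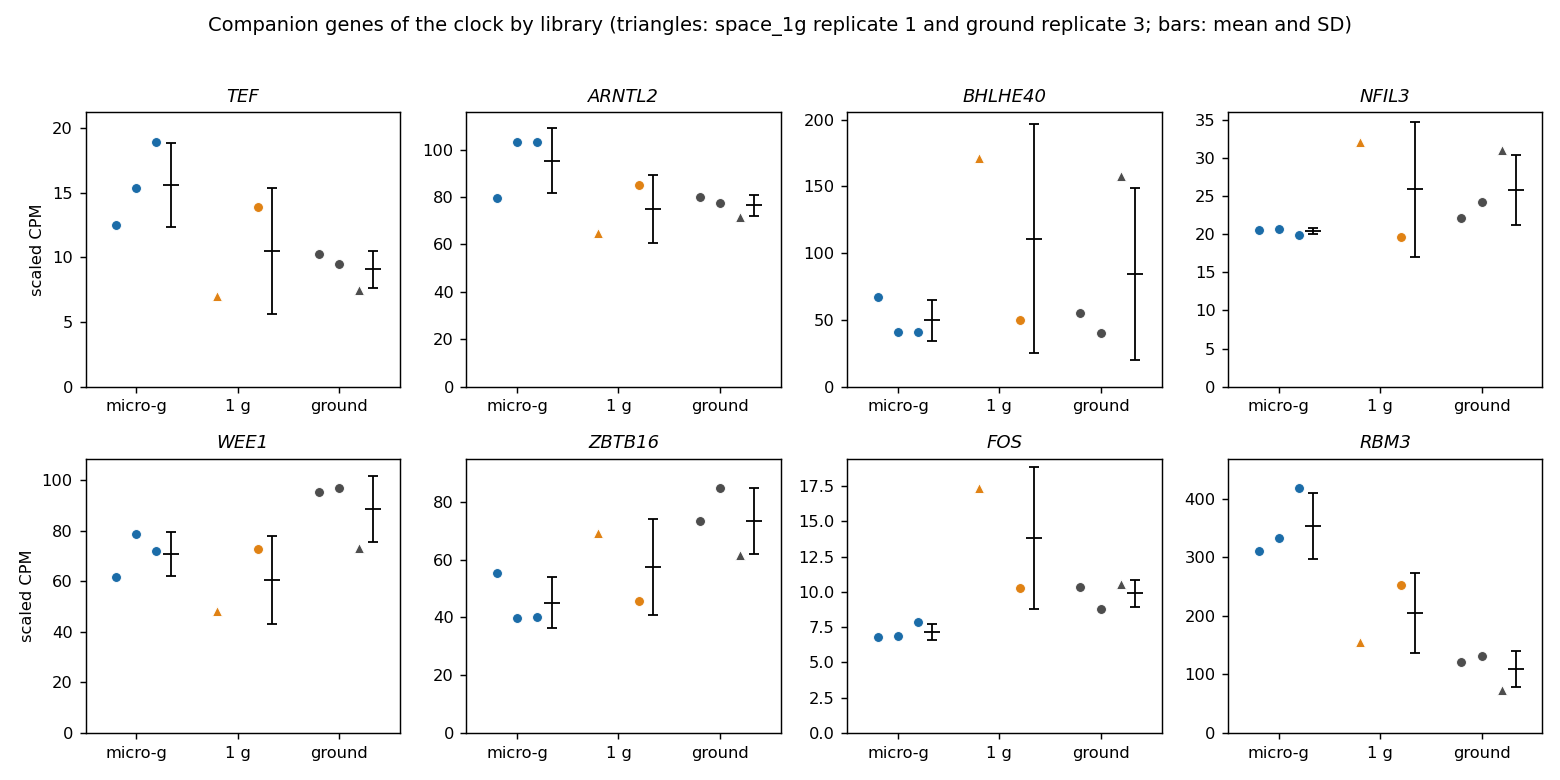
Scaled CPM (vertical axes, from 0) of 8 genes from the companion lists in each library, by group (horizontal axes), with triangles for space_1g replicate 1 and ground replicate 3 and bars for the group mean and SD. TEF and RBM3 are higher in all 3 space_microg libraries than in the 3 ground libraries, and BHLHE40 is at 171 and 158 in the triangles and at or below 67.3 elsewhere.

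The stimuli that reset PER1 were followed through other genes they act on. Hydrocortisone was in the medium of every group, and 0 of 16 glucocorticoid receptor targets passed limma's test. ZBTB16, the target with the smallest unadjusted p, averaged 45.1 ± 8.86 in space_microg and 73.4 ± 11.5 on the ground, a difference of -0.69 ± 0.22 with the groups apart (unadjusted p = 0.0117, adjusted p = 0.866), or -0.81 without the libraries that stand apart. NR3C1, the receptor itself, was measured at 165 to 241. Of 13 targets of CREB, the factor of the cyclic AMP pathway, 0 passed. FOS averaged 7.16 ± 0.60 in space_microg and 13.8 ± 5.01 in space_1g, a difference of -0.82 ± 0.26 (unadjusted p = 0.0117), and FOSB 1.69 ± 1.03 and 4.28 ± 1.25, a difference of -1.02 ± 0.34 (unadjusted p = 0.0158), both with an adjusted p of 0.912. NR4A2 averaged 1.33 ± 0.46 in space_microg and 3.76 ± 2.11 on the ground, a difference of -0.96 ± 0.34 (unadjusted p = 0.0194). Without the libraries that stand apart, the differences of FOS and FOSB from the remaining space_1g library were -0.47 and -0.78 (unadjusted p = 0.103 and 0.0751), and that of NR4A2 from ground was -1.16. Of the 13 CREB targets, 12 lay below 0 between space_microg and space_1g, the direction of PER1, as did 53.4% of all genes, and 5 had their groups apart, against 14.2% of all genes. Their median was -0.61, against -0.025 for all genes, and it rested on space_1g replicate 1: without the libraries that stand apart it was -0.19, with 11 below 0 and 5 apart, against 33.3% of all genes. In both of those libraries 9 of the 13 were highest. With all libraries, the direction was not particular to CREB targets. Of the 16 glucocorticoid receptor targets 12 lay below 0, with a median of -0.13 and 1 apart. Without the libraries that stand apart 7 lay below 0 and 9 above, with a median of 0.020. With all libraries, 7 of 9 other clock transcription factors, 9 of 12 output genes and 13 of 19 kinases, phosphatases and ligases lay below 0. Of 18 coactivators and corepressors 7 did. When the libraries that stand apart were left out, 2 of 7 other clock transcription factors and 3 of 12 output genes lay below 0. So did 7 of 19 kinases, phosphatases and ligases and 11 of 18 coactivators and corepressors, against 11 of 13 CREB targets. The cause was not tested.

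RBM3 and CIRBP, RNA-binding proteins that rise in mild cold and are known to act on clock transcripts, were both above 0 in every comparison. RBM3 was measured at 311, 333 and 418 in space_microg, 156 and 253 in space_1g, and 122, 132 and 73.5 on the ground. No group overlapped another, and the differences were 1.72 ± 0.27 between space_microg and ground, 0.90 ± 0.30 between space_1g and ground and 0.82 ± 0.30 between space_microg and space_1g, with adjusted p of 0.866, 1.00 and 0.912 in limma. Without the libraries that stand apart they were 1.46, 0.99 and 0.47, with adjusted p of 0.0693, 0.886 and 1.00. CIRBP was measured at 82.0, 83.6 and 89.1, then 80.5 and 71.6, then 61.0, 80.9 and 68.8, in the same order. No clock gene had its 3 groups in separate ranges as RBM3 did, but the share of all genes with that pattern was not counted.

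Endothelial markers were present in every library. All 10 of the list were measured, with summed levels of 1249 to 1839 scaled CPM in space_microg, 1370 to 1527 in space_1g and 1808 to 2139 on the ground. TEK, the angiopoietin receptor, averaged 188 ± 35.5 scaled CPM in space_microg, 201 ± 48.3 in space_1g and 289 ± 25.0 in the ground libraries. Both flight groups together lay -0.58 ± 0.17 from ground on the log2 scale (limma unadjusted p = 0.00868, adjusted p = 1.00). KDR, the main VEGF receptor, differed in the same comparison by -0.50 ± 0.18 and CDH5, the endothelial cadherin, by -0.50 ± 0.20. All 3 missed the adjusted threshold. They were at -0.66, -0.60 and -0.61 without the libraries that stand apart. CLDN5, a tight junction protein, was scarce at 0.263 to 9.93 scaled CPM. In these bulk samples, fewer cells of a type and less RNA per cell cannot be told apart. Smooth muscle and pericyte markers, 5 of 7 measured, summed to 147 to 194 in space_microg, 208 to 304 in space_1g and 207 to 372 on the ground. Their sum thus lay lower in space_microg than in either other group. PER1 in space_microg also lay below space_1g, but overlapped the ground. CSPG4 and PDGFRB made up most of that sum, DES was at 0 in 2 libraries, and the defining genes MYH11 and CNN1 were not analysed here. The part of either list in the values of PER1 was not tested. Fibroblast markers, 4 of 7 measured, summed to 142 to 290, 105 to 304 and 158 to 244 in the same order of groups. Keratinocyte (2 of 7), leukocyte (1 of 6) and melanocyte markers (2 of 5) summed to no more than 4.63, 2.88 and 6.66 in any library.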

How the data were processed

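RNA-seq of 8 HMEC-1 libraries (3 space_microg, 2 space_1g, 3 ground) was made with a stranded total RNA kit and ribosomal depletion, per the labels' protocols. The authors deposited 1 table of normalised signal, called CPM per the labels: reads per gene scaled to effective library size. The submitters' processing notes name STAR 2.5.3, CASAVA 1.8.2, featureCounts, edgeR and FastQC, and the builds GRCh38 and hg38, without roles. The strand setting and the annotation are not given in the sources used here. Each deposited column was a set of whole multiples of 1 read (100% of values within 1e-06 read), and TMM factors from those reads equalled the deposited scaling within 7.77e-16.

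The values were analysed as log2(scaled CPM + 1) for 16103 genes with 1 scaled CPM or more in 2 or more libraries; 50 genes fell below that. Groups were compared with limma 3.58.1 in R 4.3.3 (moderated variances with a mean trend), two-sided, on all 8 libraries in 1 fit with no covariate, with Benjamini-Hochberg adjustment over all genes at 0.05. The plan had assumed plain CPM. A fold change on this scale understates that of low genes. Alternatives were other pseudocounts, filters and scalings, only the groups compared, no trend, array weights, a replicate block, removal of the trend on GC and transcript length, edgeR 4.0.16 and DESeq2 1.42.0 on the recovered reads, and libraries left out. GC content and length came from the longest transcript in GENCODE v29 and were found for 13895 of 16153 symbols and for all clock genes. Within each group, pairs of libraries differed beyond counting noise (chi-square per degree of freedom 19.3 to 205), so none was treated as a duplicate.

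The clock genes and the companion lists were chosen with earlier results of these data known. Named from the companion lists were members with an unadjusted p under 0.05, at most 4 per list and comparison, with RBM3, CIRBP and all other clock transcription factors; CSNK1D, NR3C1 and the marker genes were named for their roles, whatever their values. Promoter sequences are those of RefSeq (GRCh38). The fit was checked on simulated data before use. Some genes are not reported here.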

Additional observations from a re-analysis of the deposited data

Results flagged for a closer look

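In PER1, FOS and FOSB the flight groups lay on opposite sides of the ground mean, every space_microg library below it and every space_1g library above it. The ground means were 93.7, 9.90 and 3.37 scaled CPM. The direct difference of space_microg from space_1g was -0.42 ± 0.16 (SE) for PER1, -0.82 ± 0.26 for FOS and -1.02 ± 0.34 for FOSB on the log2(scaled CPM + 1) scale. Limma's unadjusted p was 0.0254, 0.0117 and 0.0158, with an adjusted p of 0.912 for each. The search covered the clock genes and genes picked from the companion lists, and the share of all genes with this pattern was not counted. FOS and FOSB were picked for their unadjusted p, which is therefore no separate result. With the GC and length trend removed, PER1 differed by -0.12 (limma unadjusted p = 0.544). Without the libraries that stand apart, the differences of FOS and FOSB were smaller.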

How the results depend on the processing

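No clock gene passed the adjusted threshold under any alternative, the smallest adjusted p being 0.098 (ARNTL, space_microg against ground, array weights). The count of all genes called kept at 0 except with array weights (615 between space_microg and ground, 69 for both flight groups against ground) and in DESeq2 (3 and 8); the cause was not tested. Since every clock gene missed the threshold, a change of sign concerns values within their error. Signs that differ from the values in the report were as follows, on the log2 scale. Without the libraries that stand apart, between space_microg and ground CRY2 0.093, ARNTL 0.41, CLOCK -0.027 and DBP -0.25, between space_1g and ground PER2 -0.098 and NR1D1 -0.067, between space_microg and space_1g PER3 -0.16, ARNTL 0.12, CLOCK -0.098, NR1D2 -0.11 and DBP -0.65, for both flight groups against ground PER1 0.0026, CRY2 0.11 and NR1D1 -0.15. With array weights, between space_microg and ground CRY2 0.073, ARNTL 0.47, CLOCK -0.076, NR1D1 0.078 and DBP -0.45, between space_1g and ground CLOCK -0.21 and DBP -0.42, between space_microg and space_1g DBP -0.026, for both flight groups against ground PER1 0.16, PER2 0.18, CRY2 0.18, CLOCK -0.14 and DBP -0.44. With the GC and length trend removed, between space_microg and ground CRY2 0.043, between space_microg and space_1g CLOCK -0.0075 and NR1D2 -0.076, for both flight groups against ground PER1 0.051, PER2 0.043 and CRY2 0.075. In edgeR, between space_microg and space_1g DBP -0.071, for both flight groups against ground PER2 0.0063 and ARNTL -0.047. In DESeq2, between space_microg and space_1g DBP -0.088, for both flight groups against ground ARNTL -0.082. With plain totals, for both flight groups against ground CRY2 0.0013.

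With each library left out in turn, the genes whose sign changed ranged as follows. For space_microg against ground, CRY1 -0.15 to 0.00070, ARNTL -0.28 to 0.41, DBP -0.25 to 0.52, CRY2 -0.28 to 0.093 and CLOCK -0.027 to 0.32. For space_1g against ground, PER2 -0.23 to 0.61, CRY2 -0.11 to 0.34, ARNTL -0.15 to 0.59, NR1D1 -0.36 to 1.58, PER3 -0.15 to 0.36, CLOCK -0.22 to 0.29, NR1D2 -0.15 to 0.29 and DBP -0.55 to 0.87. For space_microg against space_1g, PER3 -0.16 to 0.35, DBP -0.65 to 0.77, ARNTL -0.47 to 0.12, CLOCK -0.098 to 0.41 and NR1D2 -0.11 to 0.32. For both flight groups against ground, NR1D1 -0.45 to 0.53, CRY2 -0.15 to 0.22, ARNTL -0.19 to 0.50, PER2 -0.25 to 0.17, CLOCK -0.10 to 0.24, DBP -0.28 to 0.55 and PER1 -0.13 to 0.023. Where a space_1g library is left out, the lone one left is assumed to vary like the other groups.

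The labels do not say that the replicate numbers pair the samples, and the numbers were not taken to do so. Same-numbered libraries had correlations of their deviations between -0.68 and 0.68. Those with space_1g cannot decide the pairing, because the 2 space_1g libraries deviate from their mean by equal and opposite amounts. Between space_microg and ground, same-numbered libraries had -0.40, 0.56 and 0.050, and libraries of unlike number -0.46 to 0.47. These ranges overlap, and the pairing was left undecided. With the replicate block alone, between space_1g and ground CLOCK -0.097, for both flight groups against ground CRY2 0.047. With the replicate block and the GC and length trend removed, between space_microg and ground CRY2 0.043, between space_1g and ground DBP -0.026, between space_microg and space_1g CRY1 -0.091 and NR1D2 -0.095, for both flight groups against ground PER1 0.0042, PER2 0.056 and CRY2 0.098. The replicate block called 0 genes in every comparison, with 1013, 759, 850 and 874 unadjusted, in the order of the report. DBP, on 33 to 162 reads per library, and 3 groups of 2 or 3 libraries limit what could be detected.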
